A study of Mus musculus with 13 samples.

Results

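The genes described here encode the RNA polymerases I, II and III (Pol I, Pol II and Pol III) and the factors that bring Pol I and Pol III to their promoters. They were found by symbol, as probe sets that name only 1 gene called Polr1, Polr2 or Polr3 with a letter, Gtf3c with a number, Taf1a to Taf1d, Rrn3, Ubtf, Brf1, Brf2 or Bdp1. That gave 39 of the 18193 genes on the array, measured by 85 probe sets; 21 of them had several probe sets and 18 had 1. The rule uses no measured value, but the set was proposed with earlier results of these arrays known, so its size of change is no independent evidence about the machinery. RNA came from C2C12 cells, a mouse myoblast line that grows as precursors of skeletal muscle, kept in parallel flasks. The cells grew with 5% fetal bovine serum (FBS), were held at 0.2% for 24 h, and then received medium with FBS again. The 13 Affymetrix arrays analysed here covered 0 h, the end of starvation, and every 0.5 h up to 6.0 h, with 1 array per time and no replicate flask. They were grouped by time into 0 h (1 array), early (0.5 to 2.0 h), middle (2.5 to 4.0 h) and late (4.5 to 6.0 h, 4 arrays in each window), and all of the cells had been through the same starvation.

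Pol I makes the large ribosomal RNA precursor in the nucleolus, Pol II makes messenger RNA, and Pol III makes transfer RNA, 5S ribosomal RNA and other short RNAs. Each enzyme is a multi-subunit complex built around a pair of large catalytic subunits; Pol I and Pol III have some subunits in common, and a further group is built into all 3 enzymes. Pol I is recruited by the promoter-bound factors UBTF and SL1, a complex of TBP and TAF1 proteins, and by RRN3, which couples the enzyme to growth signals. Pol III is recruited by TFIIIC, the product of the Gtf3c genes, and by TFIIIB, which holds TBP, BDP1 and BRF1 or BRF2. In cells that leave quiescence, output of Pol I and Pol III is known to increase as ribosomes are built.

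Values are log2 of the deposited ratio, averaged over the probe sets of a gene. Each probe set has its own reference, so the values carry changes and no level, and no subunit can be called more abundant than another. Presence of myoblast markers could not be checked for the same reason. The median ratio per array was 0.977 to 1.00. The 4 middle arrays stood apart to some degree: over all genes, neighbouring arrays correlated at 0.50 from 2.0 to 2.5 h and at 0.51 from 4.0 to 4.5 h, against 0.56 to 0.76 for the other neighbours. No gene was filtered for a low value, and all 39 were tested. The p-values measure the spread of different times within a window, which may be technical, and no replicate error. RNA was taken from whole flasks, so fewer cells with a transcript and less of it per cell cannot be told apart.

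Between the early and the late window, genes of all 3 enzymes rose. In the late window 15 of the 39 members rose and 2 fell relative to the early window (limma, Benjamini-Hochberg adjusted p under 0.05), where 11.7% of all 18193 genes rose and 9.29% fell; the members' 17 calls are 43.6%, against 21.0% of all genes. The largest rises were those of Polr3g, a Pol III subunit of the initiation subcomplex, at 1.49 ± 0.13 (adjusted p = 9.08e-06) on the log2 scale, which is 2.81-fold, and of Polr1e, a Pol I subunit that helps the enzyme start, at 1.13 ± 0.12 (adjusted p = 3.03e-05), which is 2.18-fold. The median change over the members was 0.12, against 0.02 over all genes. Subunits and initiation factors differed in their counts: among the 24 subunits 12 rose and 2 fell, with a median of 0.18, and among the 15 initiation factors 3 rose and 0 fell, with a median of 0.04. At an unadjusted p under 0.05, 20 of the 39 members differed between the windows, as did 5753 of all 18193 genes.

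**Figure D1:**
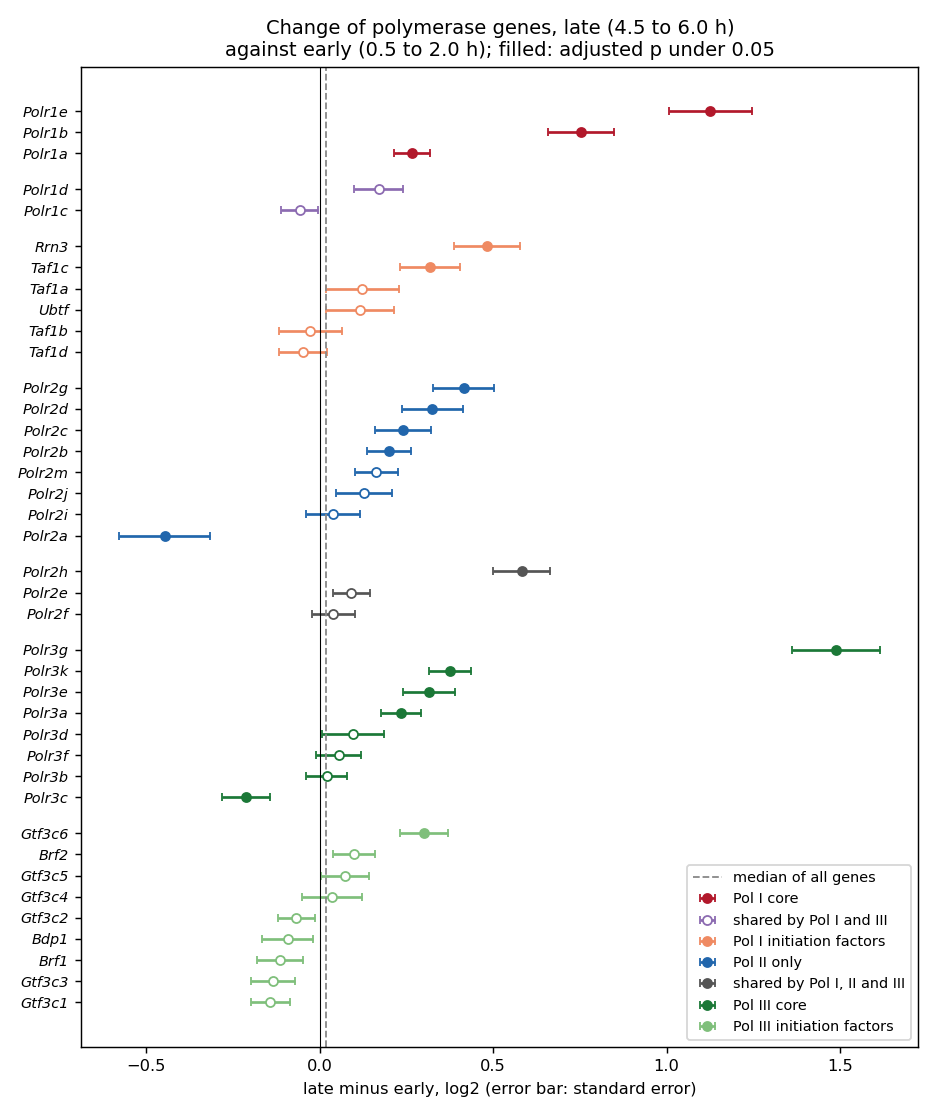
Late minus early change of the 39 genes on the log2 scale, grouped by enzyme and role; points are the fitted differences, bars their standard errors, filled points have an adjusted p under 0.05, and the dashed line is the median of all genes (0.02). Polr3g and Polr1e lie farthest to the right, at 1.49 and 1.13, and Polr2a farthest to the left, at -0.45.

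Counts by enzyme were the same for the members found only in Pol II and only in Pol III, and differed for Pol I. The 3 members found only in Pol I, Polr1a, Polr1b and Polr1e, rose, with a median of 0.75; of the 8 found only in Pol II, 4 rose and 1 fell, with a median of 0.18; of the 8 found only in Pol III, 4 rose and 1 fell, with a median of 0.17. Among the 3 measured subunits that all enzymes use, 1 rose, and of the 2 used by Pol I and Pol III neither was called. Of the 6 Pol I initiation factors 2 rose, while 1 of the 9 Pol III initiation factors rose and their median was -0.07. These medians rest on few genes each, and the difference between enzymes was not tested. The Pol I count and median leave out Twistnb, Cd3eap and Znrd1, Pol I subunits listed under older symbols. None of them was called, and each changed by less than 0.75 (values below). In 15 members every late array lay above every early array (38.5%, against 14.1% of all genes), and in 2, Polr2a and Gtf3c1, every late array lay below (5.13%, against 11.1%).

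The start regions of 4 members are shown because these members had the largest changes of their class: Polr3g for Pol III, Polr1e for Pol I, Polr2h for the subunits in common and Rrn3 for the initiation factors. They run from 250 bases before to 50 bases after the annotated gene start in RefSeq (GRCm38.p6), 5′ to 3′ on the strand of the gene: chr13:81710964-81711263 (minus strand) for Polr3g, chr4:45018359-45018658 (plus) for Polr1e, chr16:20717576-20717875 (plus, the first of 2 listed starts) for Polr2h and chr16:13780449-13780748 (plus) for Rrn3. Capitals mark 2 motifs on either strand, CACGTG, the E-box bound by MYC, USF and related factors, and CCGGAAG, a core bound by ETS factors, which reads CTTCCGG on the other strand; the 2 do not overlap here.
Polr3g: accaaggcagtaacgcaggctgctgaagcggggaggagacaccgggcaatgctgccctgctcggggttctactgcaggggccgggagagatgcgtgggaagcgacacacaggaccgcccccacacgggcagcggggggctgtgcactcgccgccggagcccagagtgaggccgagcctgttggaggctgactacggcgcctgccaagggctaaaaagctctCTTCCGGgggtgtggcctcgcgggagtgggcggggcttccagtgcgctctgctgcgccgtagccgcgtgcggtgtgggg
Polr1e: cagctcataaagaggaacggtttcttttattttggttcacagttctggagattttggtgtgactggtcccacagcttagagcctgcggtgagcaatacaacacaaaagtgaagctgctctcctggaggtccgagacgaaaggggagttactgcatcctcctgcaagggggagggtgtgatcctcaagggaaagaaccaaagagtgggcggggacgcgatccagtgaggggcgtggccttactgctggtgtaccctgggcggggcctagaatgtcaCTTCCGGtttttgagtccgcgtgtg
Polr2h: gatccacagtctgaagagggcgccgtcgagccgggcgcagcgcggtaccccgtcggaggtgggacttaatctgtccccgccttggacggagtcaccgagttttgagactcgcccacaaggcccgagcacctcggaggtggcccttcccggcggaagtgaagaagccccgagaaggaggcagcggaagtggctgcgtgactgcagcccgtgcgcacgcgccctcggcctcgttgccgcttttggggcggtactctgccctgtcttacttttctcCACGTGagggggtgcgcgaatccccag
Rrn3: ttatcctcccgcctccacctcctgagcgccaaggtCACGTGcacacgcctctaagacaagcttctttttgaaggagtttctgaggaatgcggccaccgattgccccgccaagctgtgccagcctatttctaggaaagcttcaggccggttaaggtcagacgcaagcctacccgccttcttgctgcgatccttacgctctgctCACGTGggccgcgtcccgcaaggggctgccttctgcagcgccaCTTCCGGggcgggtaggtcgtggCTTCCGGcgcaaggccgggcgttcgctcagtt
Polr3g and Polr1e each held 1 ETS core and no E-box, Polr2h held 1 E-box, and Rrn3 held 2 of each. The first base of the Polr3g motif lay 29 bases before the start, and the E-boxes of Rrn3 began 215 and 48 bases before it.

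Start regions were listed for 33 of the 39 members. Of these, 5 (15.2%) held CACGTG in at least 1 of their listed regions, namely Gtf3c6, Polr2h, Polr3c, Polr3e and Rrn3, against 10.2% of the 14452 genes on the array with a listed region and 7.15% of all 32851 regions. CCGGAAG was present in 15 members (45.5%), against 15.0% of genes and 8.86% of regions, and GGGCGG, the GC box bound by SP1, which was also searched on both strands, in 22 members (66.7%), against 57.3% of genes and 35.7% of regions. In late minus early, 4 of the 5 members with an E-box rose and Polr3c fell, where 15 of all 39 members rose and 2 fell. The Polr3c call was lost in 11 of 22 alternatives. Among the 15 members with CCGGAAG, Gtf3c6, Polr1e, Polr2c, Polr3g, Rrn3 and Taf1c rose and the others were not called. Calls were not counted for GGGCGG, nor over all genes on the array that hold a motif. A link between motif and change was not tested. A match of letters is a description and no evidence of binding.

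Polr1a, Polr1b and Polr1e, the members found only in Pol I, rose from the early to the late window. Polr1e was at -0.74 at 0 h, -0.92, -0.99, -0.75 and -0.42 early (0.5 to 2.0 h), -0.39, -0.09, 0 and 0.12 in the middle window and 0.32, 0.28, 0.44 and 0.40 late. Every late value lay above every early value, and the lowest array was 1.0 h. Late minus early was 1.13 ± 0.12 (adjusted p = 3.03e-05), and its 2 probe sets gave 1.08 and 1.17. Polr1b encodes the second-largest subunit, which forms the catalytic centre with Polr1a. It was at -0.40 at 0 h, -0.89, -0.64, -0.54 and -0.34 early (0.5 to 2.0 h), -0.06, 0, 0.11 and -0.09 in the middle window and 0.08, 0.13, 0.29 and 0.11 late. The windows did not overlap, and the change was 0.75 ± 0.09 (adjusted p = 8.61e-05), or 1.68-fold. Its value at 0.5 h was the lowest of the course and lay below that at 0 h.

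Polr1a, the largest Pol I subunit, changed less, with late arrays at 0.08, 0.11, 0.11 and -0.03 and early arrays at -0.28, -0.13, -0.21 and -0.18, a difference of 0.27 ± 0.05 (adjusted p = 0.00214). Its 5 probe sets ran from 0.04 to 0.60 and 2 of them were called, so the gene value averages unlike probe sets. Polr1c and Polr1d are the small assembly subunits that Pol I and Pol III have in common. Polr1d was at 0.17 ± 0.07 (adjusted p = 0.108). Polr1c ended near where it began, with -0.06 ± 0.05 for late minus early (adjusted p = 0.526), but it fell by 0.30 ± 0.05 (adjusted p = 0.00161) from the early to the middle window. Its middle arrays stood at -0.17, -0.25, -0.26 and -0.12 and its early arrays at 0.0044, 0.12, 0.16 and 0.12, and these did not overlap.

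Further Pol I subunits are annotated under the older symbols Twistnb, Cd3eap and Znrd1 and therefore are not among the 39; they were looked up after the annotation was seen. Their late minus early values were 0.26 ± 0.10 for Twistnb, 0.46 ± 0.19 for Cd3eap and 0.19 ± 0.07 for Znrd1. All 3 were positive and none passed the threshold (adjusted p = 0.0902, 0.101 and 0.0736).

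Among the Pol I factors, Rrn3 and Taf1c rose. Rrn3, the growth-regulated factor that makes Pol I competent to initiate, was at -0.42 at 0 h, -0.45, -0.25, -0.10 and 0 early (0.5 to 2.0 h), -0.05, 0.18, -0.04 and -0.17 in the middle window and 0.16, 0.33, 0.40 and 0.24 late. The late values all exceeded the early ones, and the middle values spread across both. Late minus early was 0.48 ± 0.10 (adjusted p = 0.00221), and late minus 0 h was 0.70 ± 0.15 (adjusted p = 0.00607). Taf1c, an SL1 subunit, was at -0.25 at 0 h, -0.36, -0.22, -0.21 and -0.13 early (0.5 to 2.0 h), 0, 0.27, 0.28 and -0.08 in the middle window and 0.13, 0.17, 0.11 and -0.07 late. It was highest on the 3.0 and 3.5 h arrays, and late minus early was 0.32 ± 0.09 (adjusted p = 0.0170). Leaving out 0.5 h ended that call at adjusted p = 0.0509, and leaving out 5.0 h at adjusted p = 0.0550. The other SL1 subunits did not pass: Taf1a was at 0.12 ± 0.11, Taf1b at -0.03 ± 0.09 and Taf1d at -0.05 ± 0.07 over 7 probe sets. Ubtf, which binds along the ribosomal DNA, was at 0.12 ± 0.10.

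**Figure D2:**
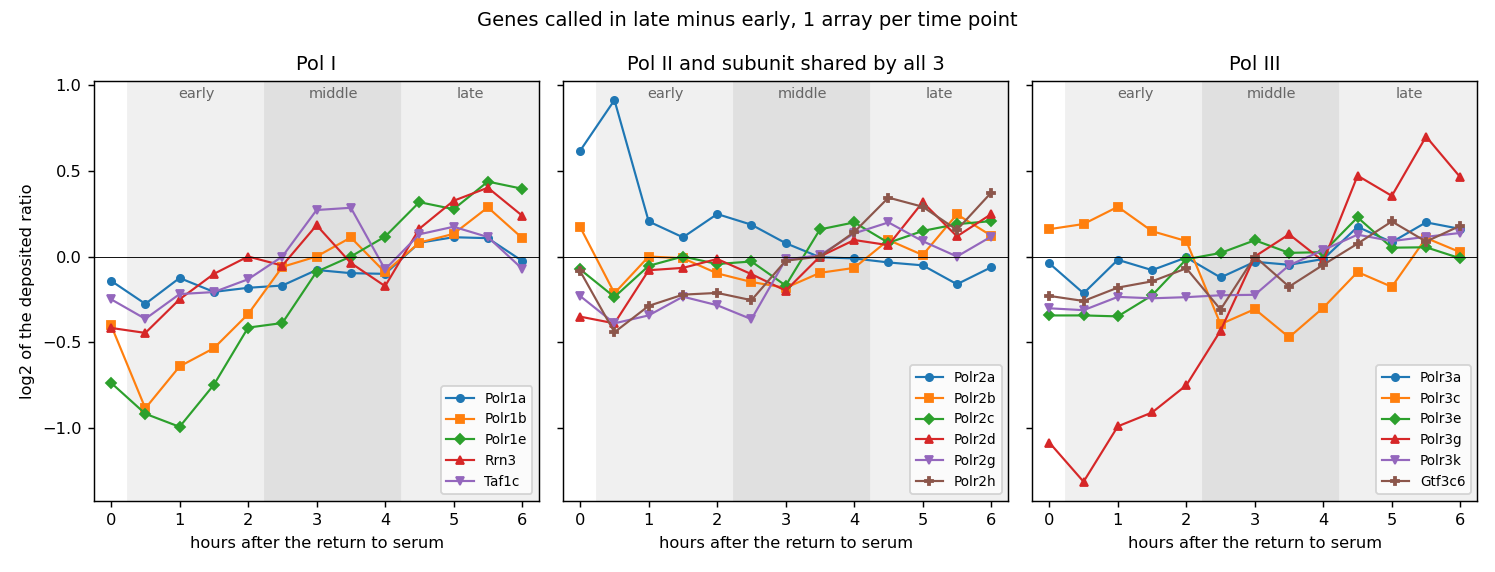
Log2 of the deposited ratio (vertical axis) against hours after the return to serum for the genes called in late minus early, with 1 point per array and the windows shaded. Polr1b and Polr1e climb through the early and middle windows, Polr2a starts high at 0.62 and 0.91 and lies at -0.16 to 0.00 from 3.5 h, and Polr3g runs from -1.31 at 0.5 h to 0.70 at 5.5 h.

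In Pol II, the largest subunit went down while 4 of the other subunits rose. Polr2a carries the catalytic centre and the C-terminal repeat domain that is phosphorylated during transcription. It was at 0.62 at 0 h, 0.91, 0.20, 0.11 and 0.25 early (0.5 to 2.0 h), 0.19, 0.08, -0.0042 and -0.01 in the middle window and -0.03, -0.05, -0.16 and -0.06 late. The 0 h and 0.5 h arrays stood far above the rest, and every late array lay below every early array. It fell by 0.45 ± 0.13 (adjusted p = 0.0243) in late minus early. Its 2 probe sets differed, at -0.71 and -0.18, and only the first was called. With the high 0.5 h array left out the change was -0.27 and was still called (adjusted p = 0.00925). The call ended on dropping 5.5 h (adjusted p = 0.0684), 6.0 h (adjusted p = 0.0503) or the whole middle window (adjusted p = 0.0543).

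Polr2g and Polr2d encode the stalk of Pol II, a dimer that projects from the core enzyme. Polr2g was at -0.23 at 0 h, -0.39, -0.34, -0.23 and -0.28 early (0.5 to 2.0 h), -0.37, -0.02, 0.01 and 0.13 in the middle window and 0.20, 0.09, 0 and 0.12 late. Its change was 0.41 ± 0.09 (adjusted p = 0.00354), and the early and late windows did not overlap. Polr2d was at -0.35 at 0 h, -0.39, -0.08, -0.07 and -0.01 early (0.5 to 2.0 h), -0.10, -0.20, 0 and 0.10 in the middle window and 0.07, 0.32, 0.12 and 0.25 late. It rose by 0.33 ± 0.09 (adjusted p = 0.0170), a call that ended when 5.0 h was dropped (adjusted p = 0.0598). Polr2c, an assembly subunit that corresponds to Polr1c, was at -0.08 at 0 h, -0.24, -0.05, 0 and -0.04 early (0.5 to 2.0 h), -0.03, -0.17, 0.16 and 0.20 in the middle window and 0.08, 0.15, 0.19 and 0.21 late. It rose by 0.24 ± 0.08 (adjusted p = 0.0447), and leaving out a single array ended this call for 8 of the 13 arrays, at adjusted p up to 0.128.

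Polr2b, the second-largest subunit and partner of Polr2a, was at 0.10, 0.01, 0.25 and 0.12 on the late arrays and -0.21, 0, -0.01 and -0.10 on the early arrays, a difference of 0.20 ± 0.06 (adjusted p = 0.0390). Its 0 h value was 0.17, and late minus 0 h was -0.05 ± 0.10. The early to late call for Polr2b was lost in 11 of 22 alternatives, for one at adjusted p = 0.115 when 0.5 h was dropped. No call was made for Polr2i (0.04 ± 0.08), a subunit with a role in fidelity, Polr2j (0.13 ± 0.08), the partner of Polr2c, or Polr2m (0.16 ± 0.06), which encodes a regulator that binds Pol II.

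The subunits built into all 3 enzymes were measured by Polr2e, Polr2f and Polr2h. Polr2h ranged from 0.16 to 0.37 on the late arrays and from -0.44 to -0.21 on the early arrays, and was -0.09 at 0 h. The windows were well separated, and Polr2h rose by 0.58 ± 0.08 (adjusted p = 1.89e-04), or 1.50-fold. Polr2e ranged from -0.01 to 0.15 on the late arrays and from -0.08 to 0.02 on the early ones. Its change of 0.09 ± 0.05 was not called, but its 3 probe sets gave 0.32, -0.02 and -0.03, and the first was called alone. Polr2f ranged from -0.06 to 0.14 on the late arrays and from -0.08 to 0.07 on the early arrays, and its change was 0.04 ± 0.06. The probe sets for Polr2k and Polr2l also name another gene and were left out.

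Polr3g had the largest change of any member. It encodes a subunit that joins Polr3c and Polr3f in the part of Pol III that contacts TFIIIB, and in other cells it is known as the form of proliferating and undifferentiated cells. It was at -1.09 at 0 h, -1.31, -0.99, -0.91 and -0.75 early (0.5 to 2.0 h), -0.43, 0, 0.13 and -0.03 in the middle window and 0.47, 0.35, 0.70 and 0.46 late. It climbed on nearly every array from 0.5 to 3.5 h, and the late arrays all lay above every earlier one. Late minus early was 1.49 ± 0.13 (adjusted p = 9.08e-06), and late minus 0 h was 1.58 ± 0.20 (adjusted p = 3.64e-04), or 3.00-fold over the single 0 h array.

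The paralog Polr3gl, whose product takes the same place in the enzyme, went the other way. It is not a member by the rule, and it was on a list of further Pol III genes. It was at 0.27 at 0 h, 0.22, 0.33, 0.48 and 0.22 early (0.5 to 2.0 h), -0.27, -0.26, -0.33 and -0.10 in the middle window and -0.18, -0.55, -0.33 and 0 late. The drop came between 2.0 and 2.5 h, and no middle or late array reached an early one. It fell by 0.58 ± 0.10 (adjusted p = 8.57e-04) in late minus early and fell by 0.56 ± 0.10 (adjusted p = 0.00187) in middle minus early. Each paralog was measured by a single probe set, and because the values are ratios they do not say which of the paralogs was more abundant at any time. Maf1, the protein that represses Pol III in starved cells, was highest at 0 h. It was at 0.61 at 0 h, 0.35, 0.39, 0.27 and 0.15 early (0.5 to 2.0 h), -0.17, -0.11, -0.08 and -0.22 in the middle window and -0.12, -0.04, 0.07 and -0.02 late. It fell by 0.32 ± 0.06 (adjusted p = 0.00193) in late minus early, and by 0.64 ± 0.10 relative to 0 h (adjusted p = 8.88e-04). Of its 3 probe sets, those at -0.47 and -0.43 were called and the one at -0.05 was not; with that probe set alone the late minus early call ended (adjusted p = 0.763), and late minus 0 h was -0.13 and not called (adjusted p = 0.592).

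**Figure D3:**
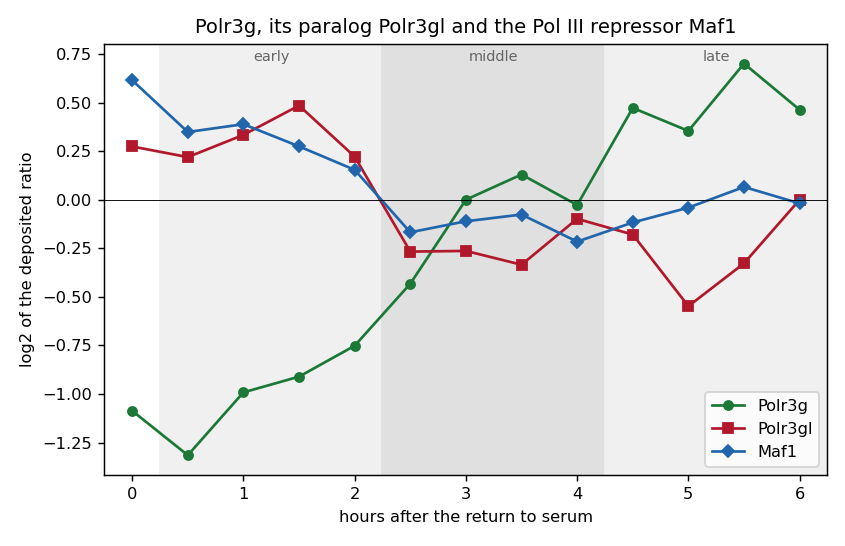
Log2 of the deposited ratio (vertical axis) against hours after the return to serum for Polr3g, Polr3gl and Maf1, 1 point per array. Polr3g is at -1.31 to -0.75 up to 2.0 h and at 0.35 to 0.70 from 4.5 h, while Polr3gl and Maf1 lie at 0.15 to 0.61 up to 2.0 h and at or below 0.07 from 2.5 h.

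Other core subunits of Pol III rose by less. Polr3k, which takes part in termination and cleavage of the nascent RNA, was at -0.30 at 0 h, -0.31, -0.24, -0.24 and -0.24 early (0.5 to 2.0 h), -0.23, -0.22, -0.05 and 0.04 in the middle window and 0.13, 0.09, 0.11 and 0.14 late. Its early arrays were nearly level, and its late arrays all lay above them. It rose by 0.38 ± 0.06 (adjusted p = 5.46e-04). Of its 6 probe sets, 3 gave 0.61 to 0.64 and were called, and the others gave 0.24, 0.15 and -0.02. Polr3e, a member of a dimer that resembles the Pol II factor TFIIF, was at -0.34 at 0 h, -0.34, -0.35, -0.23 and -0.02 early (0.5 to 2.0 h), 0.02, 0.09, 0.02 and 0.03 in the middle window and 0.23, 0.05, 0.05 and -0.01 late. It rose by 0.31 ± 0.07 (adjusted p = 0.00718), and most of the step lay between 1.5 and 2.0 h. Polr3a, the largest subunit, rose by 0.23 ± 0.06 (adjusted p = 0.00830), with late arrays at 0.08 to 0.20 and early arrays at -0.21 to -0.01.

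Polr3d and Polr3f were called in late minus 0 h and not in late minus early. Polr3d, the partner of Polr3e, was at -0.45 at 0 h, -0.32, -0.12, 0.03 and 0.20 on the early arrays and -0.04 to 0.12 on the late arrays. Late minus early was 0.10 ± 0.09 and not called, and late minus 0 h was 0.50 ± 0.14 (adjusted p = 0.0257). Polr3f, another member of the initiation subcomplex, was at -0.28 at 0 h, -0.15, -0.02, 0.11 and 0.16 on the early arrays, 0.01, -0.10, -0.03 and -0.09 on those of the middle window and 0.04 to 0.10 on the late arrays, with 0.36 ± 0.10 (adjusted p = 0.0248) for late minus 0 h. Both were within or above the range of their late arrays at 1.5 and 2.0 h, and Polr3f was below it on all 4 middle arrays. Neither was called in early minus 0 h (adjusted p = 0.132 for Polr3d and 0.112 for Polr3f). After quantile normalization both late minus 0 h calls ended (adjusted p = 0.0710 for Polr3d and 0.0802 for Polr3f). The Polr3d call also ended when 5.5 h was dropped (adjusted p = 0.0512), and the Polr3f call with 1 of its 5 probe sets alone (adjusted p = 0.391).

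Polr3c dipped in the middle window. It was at 0.16 at 0 h, 0.19, 0.29, 0.15 and 0.09 early (0.5 to 2.0 h), -0.40, -0.31, -0.47 and -0.30 in the middle window and -0.09, -0.18, 0.11 and 0.02 late. All middle arrays lay below all early ones, and the late arrays lay above the middle ones and overlapped the early ones. It fell by 0.55 ± 0.07 (adjusted p = 2.70e-04) in middle minus early and fell by 0.21 ± 0.07 (adjusted p = 0.0422) in late minus early. The second call was lost in 11 of 22 alternatives, for one at adjusted p = 0.138 when 5.0 h was dropped. Polr3b, the second-largest subunit, was at 0.02 ± 0.06 (adjusted p = 0.871) and stayed between -0.25 and 0.09 on the 13 arrays.

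Of the Pol III initiation factors, Gtf3c6, the smallest TFIIIC subunit, rose. It was at -0.23 at 0 h, -0.26, -0.18, -0.14 and -0.07 early (0.5 to 2.0 h), -0.31, 0, -0.18 and -0.05 in the middle window and 0.08, 0.20, 0.09 and 0.18 late. The late values lay above all others, and late minus early was 0.30 ± 0.07 (adjusted p = 0.00640). With 1 of its 2 probe sets alone the call ended (adjusted p = 0.0512). The 5 other TFIIIC genes were not called in late minus early, from -0.14 ± 0.06 for Gtf3c1 to 0.07 ± 0.07 for Gtf3c5. Gtf3c2 and Gtf3c3 dipped in the middle window as Polr1c and Polr3c did: Gtf3c2 fell by 0.26 ± 0.05 (adjusted p = 0.00425) and Gtf3c3 fell by 0.28 ± 0.06 (adjusted p = 0.00646) relative to the early arrays. Gtf3c1 fell by 0.30 ± 0.09 (adjusted p = 0.0312) relative to 0 h, a call that ended when any late array but the first was dropped (adjusted p = 0.0568 for 5.0 h, 0.0506 for 5.5 h and 0.0513 for 6.0 h). The TFIIIB genes were at -0.12 ± 0.07 for Brf1, 0.10 ± 0.06 for Brf2, which serves the U6-type promoters, and -0.09 ± 0.07 for Bdp1. None of these 3 was called in any window comparison.

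**Figure D4:**
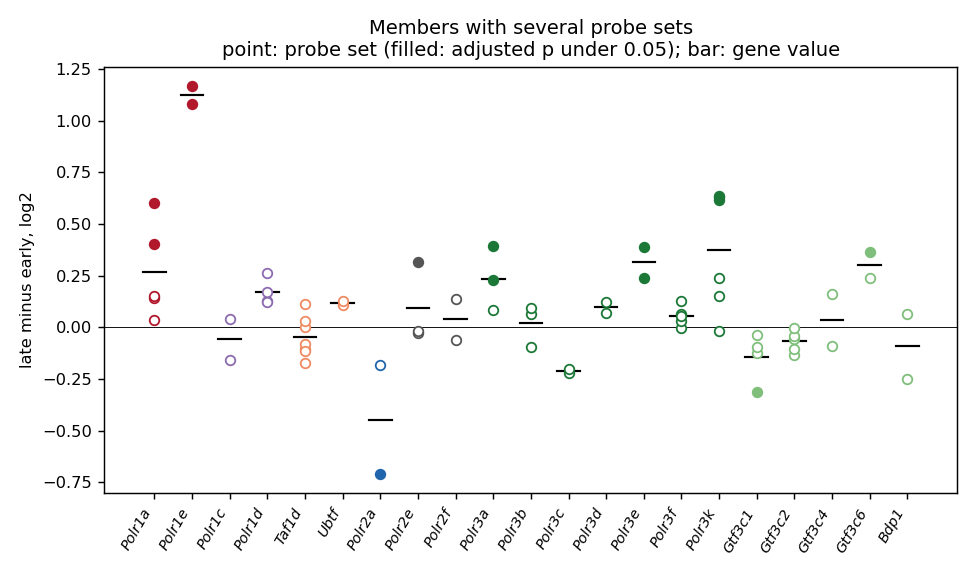
Late minus early change on the log2 scale (vertical axis) for each probe set of the 21 members with several; filled points have an adjusted p under 0.05 over all probe sets, and bars mark the gene value. The 2 Polr1e probe sets lie together at 1.08 and 1.17, while those of Polr3k, Polr1a and Polr2a spread by 0.65, 0.57 and 0.53.

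Between 0 h and the early window no member was called. Of the 39, 0 were called in early minus 0 h, where 3.26% of all genes were called (limma, 1.46% higher and 1.81% lower). At an unadjusted p under 0.05 the count was 8 of 39, against 3626 of all 18193 genes, a similar share. The comparison rests on a single 0 h array. Without the 0.5 h array 5 members were called, and with arrays weighted by their fit, or without both the 0.5 and 1.0 h arrays, 4. The shares of all genes called in these settings are not given here. These counts therefore show that the result depends on the setting, and no response of the members in particular. The 0.5 h array was the lowest of the course for 17 members (43.6%), against 12.3% of all genes. The median over the members was -0.19 at 0.5 h and -0.07 at 0 h, against -0.02 and 0.00 over all genes.

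From the early to the middle window, 6 members rose (15.4%, against 7.74% of all genes) and 4 fell (10.3%, against 14.4%). The rises were those of Polr3g at 0.91 ± 0.13 (adjusted p = 4.11e-04), Polr1e at 0.68 ± 0.12 (adjusted p = 0.00153), Polr1b at 0.59 ± 0.09 (adjusted p = 9.71e-04), Taf1c at 0.35 ± 0.09 (adjusted p = 0.0110), Polr3e at 0.27 ± 0.07 (adjusted p = 0.0177) and Polr2h at 0.26 ± 0.08 (adjusted p = 0.0374). No gene found only in Pol II was called. The Polr2h call was lost in 7 of 20 alternatives, for one at adjusted p = 0.112 when 4.0 h was dropped. That of Polr3e ended when 1.0 h was dropped (adjusted p = 0.0589) and with 1 of its 2 probe sets alone (adjusted p = 0.0964). The falls of Polr1c, Polr3c, Gtf3c2 and Gtf3c3 appear on the middle arrays, which stand apart from their neighbours over all genes; the part of that shift in these falls was not tested.

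Relative to 0 h, 11 members were higher in the late window (28.2%, against 8.80% of all genes) and 2 were lower (5.13%, against 9.90%), 13 calls in all, where 18.7% of all genes were called. Higher were 7 of the 17 members of Pol III with its factors, 3 of 9 of Pol I with its factors and 1 of 8 found only in Pol II. Those of Pol III were Polr3g, Polr3d, Polr3e, Polr3f and Polr3k of the enzyme, and Gtf3c2 (0.26 ± 0.08) and Gtf3c6 (0.37 ± 0.11) of TFIIIC. The others were Polr1e at 1.09 ± 0.19 (adjusted p = 0.00160), Polr1b at 0.55 ± 0.15 (adjusted p = 0.0198), Rrn3 and Polr2d, the last at 0.54 ± 0.14 (adjusted p = 0.0166). Polr2a and Gtf3c1 were the lower ones, Polr2a at -0.70 ± 0.21 (adjusted p = 0.0308). Quantile normalization left 7 calls of 13. The calls it ended were all of Pol III: Polr3d, Polr3e (adjusted p = 0.0703), Polr3f, Gtf3c1, Gtf3c2 and Gtf3c6. The call of Gtf3c2 was lost in 14 of 20 alternatives, and that of Polr3k with 1 of its 6 probe sets alone (adjusted p = 0.0554). Dropping 5.0 h or 6.0 h ended the call of Gtf3c6 (adjusted p = 0.0636 and 0.0553), and dropping 5.5 h ended that of Polr2a (adjusted p = 0.0590).

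A smooth course in time, fitted with a spline, was called for 22 of the 39 members (56.4%), against 38.0% of all genes. Among the members it was called for 3 of 3 found only in Pol I, 4 of 8 found only in Pol II and 7 of 8 found only in Pol III. Of these calls, that of Polr2c was lost in 9 of 20 alternatives and that of Polr3a in 8. The call of Polr1a was lost in 3, that of Polr3f in 2 and those of Polr3c and Polr3d in 1 each. The others held in all alternatives. The smallest adjusted p among members was that of Polr1e (1.29e-07), whose fitted curve spanned 1.29 on the log2 scale, and that of Polr3g was 2.33e-07 with a span of 1.74. Polr3b was the Pol III subunit without a call (adjusted p = 0.479).

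Neighbouring parts of the transcription machinery, taken from lists chosen by textbook role, were counted in late minus early, where 11.7% of all genes rose and 9.29% fell. Of 29 measured general initiation factors of Pol II, 14 rose (48.3%) and 1 fell (3.45%), with a median of 0.15. The largest were Taf3 (0.62 ± 0.11), Taf12 (0.46 ± 0.07) and Taf13 (0.34 ± 0.08) of TFIID, both TFIIF genes, Gtf2f2 (0.53 ± 0.09) and Gtf2f1 (0.39 ± 0.06), and Gtf2e2 of TFIIE (0.33 ± 0.08). Tbp, which serves all 3 enzymes, was at 0.10 ± 0.05 (adjusted p = 0.142). Of 21 pausing and elongation factors 3 rose (14.3%) and 2 fell (9.52%), shares close to those of all genes, with a median of -0.01. The rises were Leo1 of the PAF complex (0.35 ± 0.09), Tcea1 (0.21 ± 0.07) and Larp7 (0.19 ± 0.06). The falls were Aff4 (-0.25 ± 0.06) and Ccnt1 (-0.24 ± 0.07). With 1 probe set per gene only the call of Leo1 held. Factors that assemble and import the polymerases rose in 8 of 12 cases (66.7%) and fell in 0, with a median of 0.24, led by the chaperone ATPases Ruvbl1 (0.62 ± 0.08) and Ruvbl2 (0.54 ± 0.06) and the GTPase Gpn2 (0.38 ± 0.06).

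Among 13 further genes of Pol I transcription and the nucleolus, 6 rose (46.2%) and 2 fell (15.4%), against 11.7% and 9.29% of all genes, with a median of 0.06. Nolc1 (0.95 ± 0.13), Mybbp1a (0.77 ± 0.09), Pwp1 (0.63 ± 0.10) and nucleolin, Ncl (0.62 ± 0.07), were the largest rises. Ddx21 (0.49 ± 0.13) and Npm1 (0.33 ± 0.07) also rose, and Nop53 (-0.31 ± 0.05) and Baz2a (-0.20 ± 0.06) fell. With 1 probe set alone Nop53 was at -0.07 and Baz2a at -0.06, neither of them called (adjusted p = 0.640 and 0.729). Of 10 further Pol III genes, 3 rose and 2 fell, the falls being Polr3gl and Maf1. The RNA-binding protein gene Ssb, which protects the ends of Pol III transcripts, rose by 0.46 ± 0.08 (adjusted p = 0.00131). Gtf3a, the 5S gene factor TFIIIA, rose by 0.31 ± 0.08 (adjusted p = 0.0147), and Crcp, a further Pol III subunit, by 0.23 ± 0.07 (adjusted p = 0.0259); the call of Gtf3a ended when 6.0 h was dropped (adjusted p = 0.0512) and that of Crcp when any 1 of 4 arrays was (adjusted p up to 0.0754).

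Marker genes gave changes only. In late minus early, 6 of 7 markers of differentiated muscle rose (85.7%, against 11.7% of all genes), Tnnc2 most (0.57 ± 0.12), with a median of 0.33. Only 1 of the 7 was called in late minus 0 h, and their median in early minus 0 h was -0.10. The late minus early call was lost for Myh3 in 14, Ckm in 9 and Mb in 2 of 22 alternatives, and held throughout for Acta1, Tnnc2 and Myog. The part of these markers in the changes above was not tested. Of 10 myoblast markers 1 rose and 1 fell, of 5 fibroblast markers 0 rose and 1 fell, and 0 of 4 adipocyte and 0 of 6 blood and endothelial markers were called. At an unadjusted p under 0.05 these counts were 4, 3, 0 and 0, where 5753 of all 18193 genes passed.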

How the data were processed

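RNA of 13 C2C12 samples had been hybridised to 1 Affymetrix mouse array each, per the labels' protocols. The deposited values are linear ratios, relative to a constant that differs between probe sets, as the deposited values show; RMA was used, per the submitters' processing notes. How the authors formed the ratio is not stated. Any constant reference cancels in the differences between arrays used here. The table held 45101 probe sets, of which 64 array controls were left out. Of the other 45037, 34945 carried 1 gene symbol in the platform annotation, 932 several and 9160 none. Log2 ratios of the deposited table were averaged per gene over probe sets that name it alone.

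limma 3.58.1 (lmFit, eBayes, two-sided) in R 4.3.3 was fitted to all 18193 genes at once, with the means of 4 time windows and, separately, a natural spline (4 degrees of freedom); the threshold was a Benjamini-Hochberg adjusted p under 0.05. The lone array at 0 h took its spread from the other windows. Figures and counts were made with Python 3.11.15. Array dates or batches were not used here. The number of arrays limits the precision. Members, windows, gene lists and tests were chosen with earlier results of these data known. Per-array values are given for the members called in late minus early, or for the 4 with the largest change where an enzyme had more; the other values were added to these after they were seen. Called genes of the further lists were named by size of change, all of them in some lists and only the largest or none in others. Tbp was named though it was not called. On simulated data for 18193 genes, late minus early found 20.0% of genes shifted by 0.25 log2 and 88.0% of those shifted by 0.5. The smooth course found 44.0% of genes given a straight rise of 0.5 from 0 to 6.0 h. Only 50 genes of each size were changed, a far smaller share than was called in the data. The adjusted threshold was therefore stricter in the simulation, and these rates do not carry over to the data. Alternatives were quantile normalization, centring on array medians, a variance trend with a robust prior, 1 probe set per gene, leaving out arrays, other windows and other splines. Array weights and leaving out the 0.5 and 1.0 h arrays together were added after the data were seen.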

Additional observations from a re-analysis of the deposited data

Results flagged for a closer look

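In 6 of the 123 windows of 4 arrays tested, a single array stood far from the other 3 by Dixon's test; chance gives about 1 in 20. Polr2a was at 0.91 at 0.5 h, where the other early arrays lay at 0.11 to 0.25. Polr2j was at -0.19 at 0.5 h, where the others lay at -0.01 to 0.0014. Polr3k was at -0.31 at 0.5 h, against -0.24 on each of the others. In the middle window, Taf1a was at 0.26 at 3.5 h (others -0.03 to 0.02), Polr3e at 0.0949 at 3.0 h (others 0.02 to 0.03) and Gtf3c3 at -0.0321 at 3.0 h (others -0.19 to -0.16).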

How the results depend on the processing

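Of the 17 members called in late minus early, 8 were called in each of the 22 alternatives: Polr1a, Polr1b, Polr1e, Rrn3, Polr2g, Polr2h, Polr3g and Polr3k. For Polr1a and Polr3k the alternative with 1 probe set per gene used a probe set that was itself called. Other probe sets of both genes were not called, so it does not show that their calls are free of the choice of probe set. The count of members called in late minus early was 13 to 17 with 1 array left out, and 9 without both the 0.5 and 1.0 h arrays, where 14.3% of all genes were called. For middle minus early it was 8 to 11 with 1 array left out and 6 without those 2 arrays. For late minus 0 h it was 10 to 15 with 1 array left out and 7 after quantile normalization. For early minus 0 h it was 0 to 5 with 1 array left out, 1 after centring on array medians, 1 with 1 probe set per gene, 4 with array weights and 4 without both the 0.5 and 1.0 h arrays. The smooth course was called for 18 to 23 members with 1 array left out. Apart from the 14.3% above, shares of all genes are not given beside these counts. They describe how stable the counts were and do not set the members against all genes. Of the single values called in the main fit, 1 reversed its sign. Gtf2a1, a Pol II initiation factor, was at -0.0204 in late minus early with 1 probe set per gene, and the cause was not tested. In late minus early, Polr3a and Polr3e lost their calls only without both the 0.5 and 1.0 h arrays. Over all single values and alternatives, 2677 of 2960 kept their side of the threshold, 279 lost the call and 3 gained one. For values not called in the main fit, a change of sign was not counted. Some of these did change sign between alternatives in late minus early, such as Polr1c (-0.10 to 0.04) and Gtf3c4 (-0.12 to 0.16). No paired analysis was possible because each time had 1 array and no replicate flask.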
